A study of Mus musculus with 1479 samples.

Results

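Mesenchymal cells of the mouse bladder were described by 9 genes that are commonly used to sort, stain or report such cells: Cspg4, Mcam, Anpep, Cd34, S100a4, Thy1, Eng, Cd44 and Ngfr. The genes were taken by name, with no threshold on their values, and made up 9 of the 46517 genes counted. Each of the 1479 samples was 1 cell from the urinary bladder of an adult male mouse of 10 to 20 weeks on a C57Bl6/J background, sequenced by Smart-seq2, a full-length method without molecular identifiers. The cells were labelled with 1 of 6 plates, 1 of 5 lines and 1 of 11 clusters.

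The lines were Acta2GFP (8.72% of cells), Cspg4dsRED (13.7%), PdgfraGFP (9.94%) and PdgfrbGFP (54.8%), which carry a fluorescent reporter driven by control sequences of the named gene, and C57BL6 (12.8%), which carries none. The Pdgfra reporter was a knock-in at the gene itself, and the other reporters were transgenes. Cells were sorted on the reporter, on antibodies to PDGFRα or PDGFRβ, or on both, after cells positive for the endothelial antigen CD31 had been gated out, and elastase was added to the digestion for Acta2GFP. Lines were partly bound to plates: C57BL6 was alone on its plate, so that line and plate cannot be told apart there. The labels name no animal, so the line served as the unit on the assumption that lines were separate mice, and p-values then measure the spread between these lines.

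The proteins behind these genes act in different ways at the cell surface, except for S100a4, which encodes a calcium-binding protein of the cytoplasm that has been used as a fibroblast reporter. Cspg4 encodes the proteoglycan NG2 and Mcam the adhesion molecule CD146, both classical markers of pericytes and vascular smooth muscle. Cd34 encodes a sialomucin of many stromal and endothelial cells, Anpep the aminopeptidase CD13, Thy1 a small anchored glycoprotein, Eng the TGF-β co-receptor endoglin, Cd44 the hyaluronan receptor, and Ngfr the low-affinity neurotrophin receptor.

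In the coordinates of GRCm38, Cspg4 lies on chromosome 9 from 56865033 to 56899870, Mcam on chromosome 9 from 44134469 to 44142727, Thy1 on chromosome 9 from 44043384 to 44048579, and Cd34 on chromosome 1 from 194938819 to 194961279. S100a4 lies on chromosome 3 from 90603771 to 90606045 and Eng on chromosome 2 from 32646595 to 32682669, all 6 on the plus strand. On the minus strand, Anpep lies on chromosome 7 from 79821803 to 79861059, Cd44 on chromosome 2 from 102811141 to 102901665, and Ngfr on chromosome 11 from 95568818 to 95587735. S100a4 shared 51.7% of its 584 exon bases with Gm42674 on the same strand, so its counts are uncertain where the counting could split or drop shared reads. Cd34 shared 2.03% of its exon bases with the antisense gene Gm16897, Eng 1.51% with Fpgs and Mcam 0.507% with the antisense gene Gm10687, all on the opposite strand, and the strand setting of the counting is not given in the sources used here.

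The sequences before the starts of Cspg4, Mcam and Cd34 are shown because these 3 genes carried the separation of the classes described further on, the first 2 higher and Cd34 lower in mural cells. They are RefSeq sequences of GRCm38.p6 on the plus strand, limited to the bases that lie before both the RefSeq and the GENCODE start. Capitals mark the letters GGGCGG, the GC box, read here on the opposite strand.
Cspg4, chr9:56864854-56865032: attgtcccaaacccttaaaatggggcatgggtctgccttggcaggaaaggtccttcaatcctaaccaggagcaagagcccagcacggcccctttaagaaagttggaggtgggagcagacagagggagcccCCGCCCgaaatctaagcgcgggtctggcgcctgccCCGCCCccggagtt
Mcam, chr9:44134408-44134468: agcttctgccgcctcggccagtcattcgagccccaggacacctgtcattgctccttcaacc
Cd34, chr1:194938571-194938818: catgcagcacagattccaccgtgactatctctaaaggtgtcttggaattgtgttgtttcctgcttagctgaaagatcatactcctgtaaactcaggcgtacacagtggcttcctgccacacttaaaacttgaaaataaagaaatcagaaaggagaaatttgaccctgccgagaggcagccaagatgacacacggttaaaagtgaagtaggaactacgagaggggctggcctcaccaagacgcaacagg

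In the full window of 250 bases before the RefSeq start, GGGCGG was found 2 times for Cspg4, 5 times for Mcam and 0 times for Cd34 on either strand, and 32.7% of 32851 mouse promoters of that length held it. The 5 matches of Mcam lay outside the 61 bases printed. CATTCC (in 12.6% of all promoters), TGGGAA (21.6%), TATAA (22.8%), GATAA (22.6%) and the CArG box (1.47%) had 0 matches on either strand for these 3 genes. A match describes the letters only, and 8 of the 9 genes were in the table.

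Cells held between 50276 and 1446059 reads, with a median of 214893. Median endogenous reads (without the ERCC spike-in RNAs) ran from 117026 in PdgfraGFP to 292807 in C57BL6, and were 128369 in cluster 10 and 256725 in cluster 5. To compare shares of cells with reads at equal depth, 50000 endogenous reads were drawn from every cell, and 6 cells with fewer were not used. No pair of cells held identical values.

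In the study's account cluster 10 (8.45% of cells) holds the vascular mural cells and cluster 5 (76 cells) the Tnc-positive, Cd34-negative sub-epithelial fibroblasts. Clusters 1 to 4, 6 to 9 and 11 are grouped here as the other fibroblast clusters (1278 cells). Cluster 4 was left undefined by the study and is counted in that group here. The marker lists were compared between these classes. All 7 mural markers were called higher in cluster 10 than in the fibroblast clusters, with Myh11 at a log2 difference of 9.15 (SE 0.46, edgeR adjusted p 1.3e-10), and all 6 fibroblast markers were called lower, with Pdgfra at -5.92 (SE 0.70, edgeR adjusted p 1.14e-05). All 4 sub-epithelial markers were called higher in cluster 5, with Tnc at 9.77 (SE 0.50, edgeR adjusted p 6.55e-06). Cluster 5 also departed from the other fibroblasts in markers of the other lists: the smooth muscle actin gene Acta2 was the 1 of 7 mural markers called higher, by 3.13 (SE 0.44, edgeR adjusted p 0.00437), and the collagen-binding proteoglycan gene Lum the 1 of 6 fibroblast markers called lower, at -3.998 (SE 0.45, edgeR adjusted p 0.00106). At 50000 reads per cell, 68.4% of cluster 5 cells had 10 or more reads of the mural markers together, against 28.9% in the other fibroblast clusters and 100% in cluster 10. Of 8 endothelial markers 0 were called higher and 1 lower in cluster 10, and the 5 immune markers tested gave 0 calls. The authors had formed the clusters from these same expression values. A test between clusters therefore shows only whether the lines share a difference, and does not bear on the clusters themselves.

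**Figure D1:**
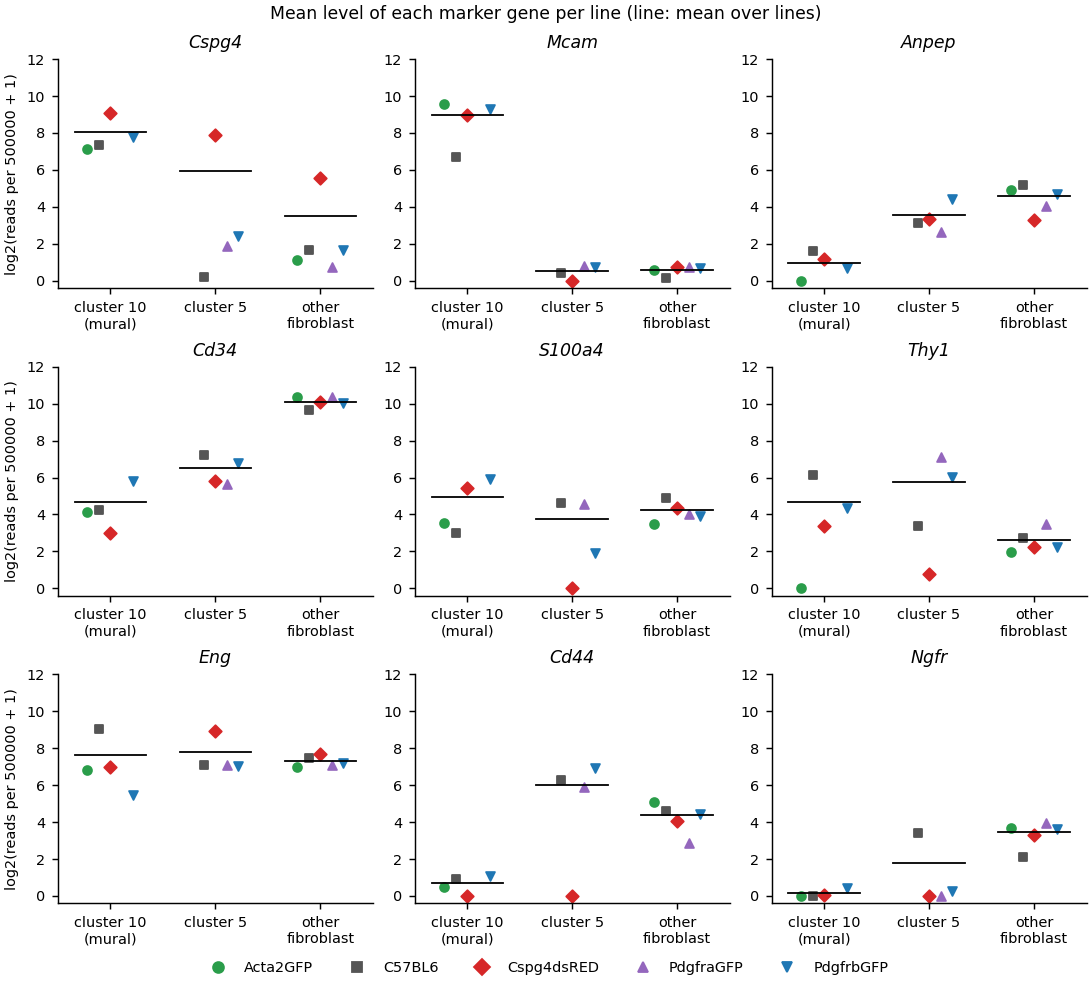
Mean level of each of the 9 genes per line in cluster 10, cluster 5 and the other fibroblast clusters, as log2(reads per 500000 endogenous reads + 1). Points are lines and the horizontal lines are the log2 of the mean over lines. Mcam and Cd34 show no overlap between cluster 10 and the other fibroblast clusters, while the points of S100a4, Thy1 and Eng overlap.

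The first question was how the mural markers were distributed. Mcam, in mean reads per 500000 endogenous reads of a cell (its level), stood in cluster 10 at 750 in Acta2GFP (12 cells), 101.4 in C57BL6 (3 cells), 503 in Cspg4dsRED (65 cells) and 624 in PdgfrbGFP (45 cells). In all fibroblast clusters its level lay between 0.131 in C57BL6 and 0.7099 in PdgfraGFP, with 0.472 for Acta2GFP, 0.670 for Cspg4dsRED and 0.615 for PdgfrbGFP. The groups did not overlap, and the lowest cluster 10 value came from the line with 3 such cells. Per kilobase of exon the mean level in cluster 10 was 147.7 for Mcam and 22.3 for Cspg4.

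At 50000 reads per cell, at least 10 Mcam reads were found in 99 cluster 10 cells (79.2%, 95% Clopper-Pearson interval 71.03% to 85.9%) and in 0 of 1348 fibroblast-cluster cells. For that count of 0 the limit was set at 3 counts, or 0.223%, which is not the end of a Clopper-Pearson interval. These intervals and limits cover counting error only. At least 1 Mcam read was found in 92% of cluster 10 and 5.27% of fibroblast-cluster cells, and in 93.6% and 17.6% before thinning. The thinned share lay between 1.90% in cluster 1 and 7.81% in cluster 2 over the fibroblast clusters, and no thinned fibroblast-cluster cell held more than 3 Mcam reads. Mcam was thus near 0 in every fibroblast cluster, cluster 5 and cluster 4 included.

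Cspg4 had in cluster 10 a level of 137.9 in Acta2GFP, 160.9 in C57BL6, 548 in Cspg4dsRED and 217.5 in PdgfrbGFP. Its level in the other fibroblast clusters was 1.17 in Acta2GFP, 2.18 in C57BL6, 0.671 in PdgfraGFP and 2.15 in PdgfrbGFP, but 46.4 in Cspg4dsRED. Within each line cluster 10 was the higher class, and the line whose reporter is driven by Cspg4 sequences was highest in both classes. Since cells of that line were sorted with this reporter, its Cspg4 level is not independent of how the cells were captured.

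At least 10 Cspg4 reads were found in 96 cluster 10 cells (76.8%, 68.4% to 83.9%), 1 of 76 cluster 5 cells and 20 of 1272 cells of the other fibroblast clusters (1.57%, 0.963% to 2.42%). By line, these were 63 of 65 cluster 10 cells in Cspg4dsRED, 27 of 45 in PdgfrbGFP, 5 of 12 in Acta2GFP and 1 of 3 in C57BL6. At least 1 read was found in 89.6%, 14.5% and 6.92% of the 3 classes, and in 91.2%, 22.4% and 14.9% before thinning. Cspg4 differed from Mcam in that some fibroblast-cluster cells reached 10 reads. Of the 20 such cells of the other fibroblast clusters, 10 were among the 21 cells of cluster 4 (47.6%), and the rest lay in clusters 1 and 7 with 3 each and clusters 8 and 9 with 2 each, where no cell had 10 Mcam reads.

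Anpep, which is also listed among mural markers, had the opposite pattern. Its level in cluster 10 was 0 in Acta2GFP, 2.01 in C57BL6, 1.26 in Cspg4dsRED and 0.627 in PdgfrbGFP, against 28.7, 33.2, 8.96 and 24.8 in the fibroblast clusters of the same lines. The 2 groups did not overlap, and 2 cluster 10 cells had an Anpep read at 50000 reads (1.6%). Among fibroblasts the share with a read was highest in cluster 3 (62.7%, 57.3% to 67.8%) and lowest in cluster 9 (20.9%, 13.1% to 30.7%), the latter a cluster with 85 of its 91 cells from Cspg4dsRED.

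Cd34 was the most abundant of the 9 genes in fibroblasts per length, with a level per kilobase of exon of 151.8 in the other fibroblast clusters against 38.7 for Eng, 30.1 for S100a4 and at most 5.50 for the rest. Its level in the other fibroblast clusters was lowest in C57BL6, at 791, and was 1306 in Acta2GFP, 1072 in Cspg4dsRED, 1308 in PdgfraGFP and 1056 in PdgfrbGFP. The 4 lines with cluster 5 cells gave 145.4 (C57BL6), 55.6 (Cspg4dsRED), 49.4 (PdgfraGFP) and 107.5 (PdgfrbGFP), and in cluster 10 it was 16.4 in Acta2GFP, 17.7 in C57BL6, 7.03 in Cspg4dsRED and 55.5 in PdgfrbGFP. Clusters 5 and 10 both lay below every line of the other fibroblasts, and cluster 10 was the lower of these clusters in 3 of 3 lines.

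By cluster, the mean Cd34 level ran from 1343 in cluster 7 over 1223 in cluster 3, 1199 in cluster 9, 1169 in cluster 1, 996 in cluster 11, 891 in cluster 2, 789 in cluster 6 and 735 in cluster 4 to 619 in cluster 8. The SD over 2 to 5 lines lay between 205.9 in cluster 3 and 397 in cluster 11, and was 703 in cluster 4, with 2 lines. Neighbours in that order differed by less than the spread between lines. The next values, 89.5 ± 45.5 in cluster 5 and 24.2 ± 21.4 in cluster 10 (n = 4 lines each), stood apart from cluster 8, although the ranges over lines of clusters 5 and 10 touched (49.4 to 145.4 and 7.03 to 55.5).

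At least 10 Cd34 reads were found in 1232 of 1272 cells of the other fibroblast clusters (96.9%, 95.7% to 97.7%), 22 of 76 cluster 5 cells (28.9%, 19.1% to 40.5%) and 10 cluster 10 cells (8%, 3.90% to 14.2%). All 10 of these cluster 10 cells came from PdgfrbGFP. At the level of a single read the classes came close, with 99.2%, 92.1% and 68.8% of cells, so that presence or absence of Cd34 reads separated them less than their number. Cluster 4 held 11 of 21 cells with at least 10 reads (52.4%), against 92.9% to 100% in the other 8 clusters of this class.

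Thy1, a marker of many stromal cells, was low in most of them. Its level in the other fibroblast clusters lay between 2.92 and 10.0 over 5 lines. In cluster 5 it was 136.98 in PdgfraGFP, 64.3 in PdgfrbGFP, 9.43 in C57BL6 and 0.697 in Cspg4dsRED, and in cluster 10 it was 0 in Acta2GFP, 70.3 in C57BL6, 9.54 in Cspg4dsRED and 19.1 in PdgfrbGFP. The lines thus disagreed in both clusters. A Thy1 read was found in 35 of 76 cluster 5 cells (46.1%, 34.5% to 57.9%), 16 cluster 10 cells (12.8%) and 13.2% of the 1272 cells of the other clusters (11.4% to 15.2%).

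Cd44 was almost empty in mural cells and uneven in fibroblasts. In cluster 10 its level was 0.426 in Acta2GFP, 0.873 in C57BL6, 0 in Cspg4dsRED and 1.13 in PdgfrbGFP. In cluster 5 it was 75.9 in C57BL6, 59.1 in PdgfraGFP and 120 in PdgfrbGFP, but 0 in the 3 cells of Cspg4dsRED, and in the other fibroblast clusters it ran from 6.38 in PdgfraGFP to 32.6 in Acta2GFP. At least 10 reads were found in 30 of 76 cluster 5 cells (39.5%, 28.4% to 51.4%), 100 of 1272 other fibroblast cells (7.86%, 6.44% to 9.48%) and 0 cluster 10 cells. The 6 immune markers, 5 of them with a read in cluster 5, summed to a level of 17.8 there (4.28 to 36.6 over lines) and 8.57 in the other fibroblast clusters (3.44 to 12.9), with 10 or more reads in 7.89% and 2.20% of cells. The 5 urothelial markers summed to 23.5 (0 to 91.4 over lines) and 11.3 (0.718 to 40.3), with 10 or more reads in 6.58% and 1.34% of cells. The endothelial, glial, neuronal and mesothelial lists summed lower in cluster 5. The part of these markers in the Cd44 and Thy1 levels was not tested.

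Eng was read in all classes. Its level in cluster 10 was 111.4 in Acta2GFP, 521 in C57BL6, 126.4 in Cspg4dsRED and 43.3 in PdgfrbGFP, within which the 123.2 to 208.1 of the other fibroblast clusters lay. At least 10 reads were found in 22.4% of cluster 10, 39.5% of cluster 5 and 46.2% of the other fibroblast cells, with 14.3% in cluster 4 and 63.7% in cluster 9 as the extremes of the fibroblast clusters. Since Eng, Mcam and Cd34 are also read in endothelial cells, the summed level of 8 endothelial markers is given: 86.5 in cluster 10 (13.9 to 230.1 over lines) and 60.7 in the other fibroblast clusters (40.02 to 81.1), with a read of all 8 in both. The share of cells with 10 or more reads of them went the other way, 4.8% and 21.9%, and their part in these levels was not tested.

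S100a4 was likewise present in all classes and in a minority of cells of each. Its level ran from 6.86 in C57BL6 to 59.96 in PdgfrbGFP in cluster 10, from 0 in Cspg4dsRED to 23.9 in C57BL6 in cluster 5, and from 10.2 in Acta2GFP to 28.8 in C57BL6 in the other fibroblast clusters. A read was found in 28.8% of cluster 10, 19.7% of cluster 5 and 25.6% of other fibroblast cells, and in 10 of 21 cells of cluster 4 (47.6%, 25.7% to 70.2%). In all 3 classes the reads lay in few cells: the tenth of cells with the most reads held 90%, 90.3% and 82.6% of them.

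Ngfr was the rarest of the 9 genes by cells with a read (17.9% of all cells before thinning). Its level in the other fibroblast clusters was lowest in C57BL6, at 3.31, and 8.89 to 14.6 over the other 4 lines. In cluster 10 it did not exceed 0.352 in any line, and in cluster 5 it was 0 in Cspg4dsRED and PdgfraGFP, 0.184 in PdgfrbGFP and 9.42 in C57BL6. At least 10 reads were found in 49 of 1272 other fibroblast cells (3.85%), with 21 of them in cluster 3 and 5 in cluster 4.

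**Figure D2:**
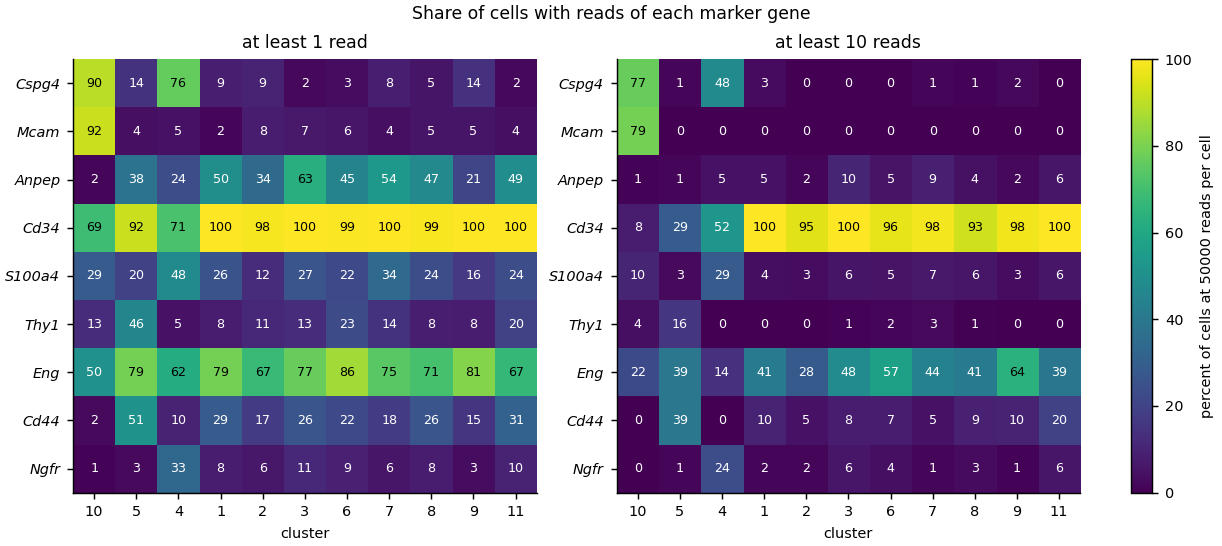
Percent of cells with at least 1 read (left) and at least 10 reads (right) of each gene in each cluster, at 50000 endogenous reads per cell. Cluster 10 stands out by Cspg4 and Mcam, all fibroblast clusters but 5 and 4 by Cd34 with at least 10 reads, cluster 5 by Cd44 and Thy1, and cluster 4 by Cspg4 with 47.6% of cells.

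Cluster 10 was compared with the fibroblast clusters over the 4 lines with at least 3 cells of both (Acta2GFP, C57BL6, Cspg4dsRED and PdgfrbGFP) by edgeR's quasi-likelihood test on summed counts. A call needed a p under 0.05 after Benjamini-Hochberg adjustment over all 16092 genes tested, and a log2 difference of 2 or more in either direction. Of all genes tested, 2.17% were called higher and 4.02% lower in cluster 10. Of the 9 genes, all were tested, 2 were called higher and 3 lower, and the median log2 fold change was -0.14 for the 9 and -0.93 for all genes.

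Mcam was higher by 9.78 in log2 (SE 0.70, edgeR adjusted p 1.57e-08) and Cspg4 by 5.85 (SE 0.84, edgeR adjusted p 0.000116), each in 4 of 4 lines. Cd34 fell in 4 of 4 lines (log2 -5.88, SE 0.56, edgeR adjusted p 1.02e-06). Cd44, at -5.96 (SE 1.62, edgeR adjusted p 0.0329), and Ngfr, at -6.28 (SE 1.80, edgeR adjusted p 0.0429), were also lower in 4 of 4 lines and rested on few reads in cluster 10. These calls of Cd44 and Ngfr were lost when the sums were rescaled to set the median gene at 0 (edgeR adjusted p 0.0826 and 0.0871) and without Acta2GFP (0.107 and 0.143), Cspg4dsRED (0.166 and 0.172) or PdgfrbGFP (0.101 and 0.138), and that of Ngfr also without C57BL6 (0.0711).

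Anpep was lower in 4 of 4 lines but missed the threshold (-5.12, SE 1.54, edgeR adjusted p 0.0511), and it passed in 8 alternatives (adjusted p from 2.43e-05 with DESeq2 to 0.0456). S100a4 (0.27, SE 1.20, edgeR adjusted p 0.940), Thy1 (1.00, SE 1.63, 0.811) and Eng (-0.14, SE 0.58, 0.935) were not called, and their ranges over lines overlapped between the classes. Rescaling to the median gene turned the split of all calls from 35.1% to 69.02% higher.

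Cluster 5 was compared with the other fibroblast clusters over C57BL6, Cspg4dsRED, PdgfraGFP and PdgfrbGFP. Of 16145 genes tested, 0.297% were called higher and 0.465% lower, and the median log2 fold change was -0.77. Of these calls 39.02% were higher, and 70.9% were with the median gene set at 0. Of the 9 genes, 0 were called higher and 1 lower, with a median of -0.05. Cd34 was the called gene, below the other fibroblasts in all 4 lines (log2 -3.90, SE 0.41, edgeR adjusted p 0.000878), and it stayed called under every alternative run. The study describes the sub-epithelial cells as Tnc-positive and Cd34-negative, so low Cd34 is part of its own description of this class.

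Cd44 (1.88, SE 1.38, edgeR adjusted p 0.692) and Thy1 (1.73, SE 1.28, 0.695) were higher in 3 of 4 lines and were not called. Without Cspg4dsRED, which gave 3 cells of cluster 5, Cd44 was higher by 2.86 (SE 0.41, edgeR adjusted p 0.0238), and in a fit of plate-wise sums, which this line could not enter, by 2.42 (SE 0.44, edgeR adjusted p 0.0105). Ngfr (-5.51, SE 2.41, edgeR adjusted p 0.350) was higher in C57BL6 and lower in the other 3 lines. Cspg4, Mcam, Anpep, S100a4 and Eng gave values from -2.15 for S100a4 to 0.99 for Cspg4, with edgeR adjusted p from 0.619 to 0.977.

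Since Cd34 was low in both clusters 10 and 5, they were also compared directly, over C57BL6 (3 against 15 cells), Cspg4dsRED (65 against 3) and PdgfrbGFP (45 against 36). Of 13519 genes tested, 1.13% were called higher and 0.673% lower in cluster 10. Of the 8 members tested, 2 were called higher and 0 lower. Mcam was higher by 9.12 (SE 1.36, edgeR adjusted p 7.48e-09) and Cspg4 by 5.52 (SE 1.35, edgeR adjusted p 0.0034), each in 3 of 3 lines, although the ranges over lines of Cspg4 overlapped. The call of Cspg4 was lost with limma-voom (adjusted p 0.137), without Cspg4dsRED (edgeR adjusted p 0.137) and without PdgfrbGFP (0.304), and without the line as a block its value was 2.44 (0.152). Cd34 (-2.14, SE 1.71) and Anpep (-3.29, SE 2.96) were lower in 3 of 3 lines with an edgeR adjusted p of 1 each, and Cd44 (-6.21, SE 2.93, edgeR adjusted p 0.607) was lower in 2 lines and at 0 in both clusters of Cspg4dsRED.

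Variation among clusters 1 to 4, 6 to 9 and 11 was tested in 1 edgeR F test over 35 sums, which called 2.54% of 14776 genes. Of the 8 members tested, Cd34 was called (largest difference between clusters 1.501 in log2, edgeR adjusted p 0.0135). It was not called without Acta2GFP, C57BL6, Cspg4dsRED or PdgfraGFP (edgeR adjusted p 0.0504 to 0.122) or without the line as a block (0.437). Cspg4 had a difference of 6.50 and missed the threshold (edgeR adjusted p 0.0546), but was called with median-of-ratios scaling, DESeq2, limma-voom and without the block (adjusted p 0.00018 to 0.0397). Anpep, S100a4, Thy1, Eng, Cd44 and Ngfr gave edgeR adjusted p from 0.269 to 1.0.

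The next question was which gene or pair of genes separated the classes cell by cell at equal depth. The measure was the area under the ROC curve within a line, the share of pairs of cells in which the cell of the first class has more reads, with 0.5 for no separation and 1 or 0 for complete separation. Between cluster 10 and the fibroblast clusters, Cd34 gave 0.0326 ± 0.0299 (SD, n = 4 lines), from 0 in Acta2GFP over 0.0220 in PdgfrbGFP and 0.0374 in C57BL6 to 0.0711 in Cspg4dsRED. Mcam gave 0.934 ± 0.077, with 1 in Acta2GFP, 0.965 in PdgfrbGFP, 0.823 in C57BL6 and 0.9497 in Cspg4dsRED, and Cspg4 0.840 ± 0.133. Low Cd34 and high Mcam thus separated the classes in the same lines, and the order of these 2 genes turned when C57BL6 was left out. Anpep followed with 0.273 ± 0.083, and Cd44, Eng, S100a4, Ngfr and Thy1 had means from 0.398 to 0.556.

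Of the 36 pairs of genes, scored as the sum or difference of log2(reads + 1), Mcam minus Cd34 separated best, with 0.993 ± 0.009 (n = 4 lines, lowest 0.980 in C57BL6). It led in the remaining lines whichever line was left out, and gave 0.980 to 1 in the line left out. Cspg4 minus Cd34 came next with 0.984 ± 0.015. In single-read terms, 83 cluster 10 cells (66.4%) had reads of both Mcam and Cd34. At a threshold of 10 reads, 93 cluster 10 cells (74.4%, 65.8% to 81.8%) had Mcam alone, 6 both, 4 Cd34 alone and 22 neither, while 1254 of 1348 fibroblast-cluster cells (93.03%, 91.5% to 94.3%) had Cd34 alone and 94 (6.97%) neither. Of these 94 cells, 54 belonged to cluster 5. As a gate, Mcam positive or Cd34 negative at 10 reads held all but 4 of the cluster 10 cells and 94 of 1348 fibroblast-cluster cells.

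**Figure D3:**
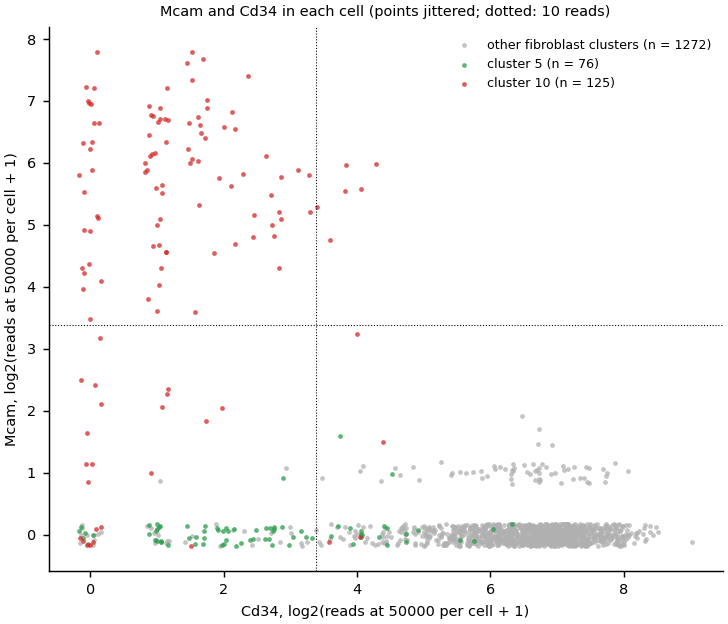
Reads of Mcam against reads of Cd34 in each cell at 50000 endogenous reads, as log2(reads + 1) with a small jitter; dotted lines mark 10 reads. Of the cluster 10 cells (red) 93 lie in the upper left field, no fibroblast-cluster cell lies above the horizontal line, and 54 of 76 cluster 5 cells (green) lie in the lower left field.

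Between cluster 5 and the other fibroblast clusters, Cd34 separated best, with 0.0568 ± 0.0418 (n = 4 lines), from 0.0185 in PdgfrbGFP to 0.104 in Cspg4dsRED. Low Cd34 is part of the study's description of the cluster 5 cells. Cd44 (0.621 ± 0.131) and Thy1 (0.620 ± 0.119) were on the other side and on both sides of 0.5 over lines. No pair did better than Cd34 alone: the leading one, Mcam plus Cd34, gave 0.0575 ± 0.0412. With C57BL6 left out, Cd34 plus Ngfr led with a separation (the larger of the area and 1 minus the area) of 0.956 against 0.951 for Cd34 alone, and gave 0.863 in C57BL6 itself. Between clusters 10 and 5, Mcam led with 0.910 ± 0.086 (n = 3 lines, 0.811 in C57BL6, 0.954 in Cspg4dsRED and 0.965 in PdgfrbGFP) and Cd34 separated less than in the other comparisons (0.290 ± 0.064). The leading pair there was Mcam minus Anpep with 0.943 ± 0.057, within the spread of Mcam alone, and another pair led in 2 of 3 cases when a line was left out. At 10 reads, a high Mcam level was found in cluster 10 cells alone. The cells under 10 reads of both genes were of mixed origin, with 54 from cluster 5, 40 from the other fibroblast clusters, 10 of these from cluster 4, and 22 from cluster 10. High Cd34 was found in 96.9% of cells of the other fibroblast clusters and also in 22 of the 76 cluster 5 cells.

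**Figure D4:**
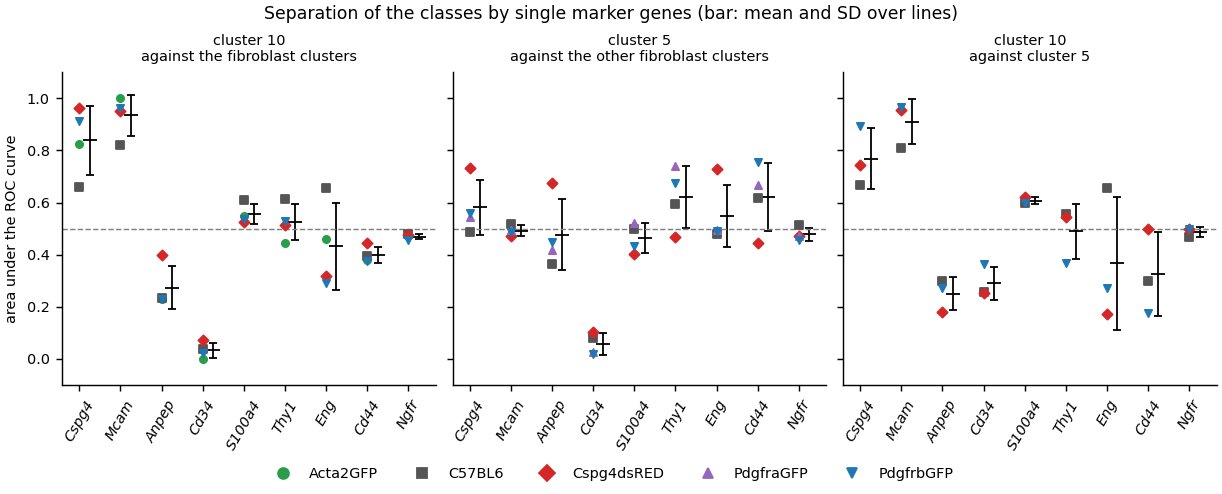
Area under the ROC curve of each gene for the 3 pairs of classes, at 50000 endogenous reads per cell. Points are lines, bars the mean and SD over lines, and the dashed line at 0.5 marks no separation; Cd34 lies near 0 in the first 2 panels (means 0.0326 and 0.0568) and Mcam above 0.9 on average in the first and last.

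Cluster 4 departed from the clusters grouped with it in several of the 9 genes. It held 23 cells, 17 from Cspg4dsRED, 4 from PdgfrbGFP and 2 from PdgfraGFP, with medians of 108489 endogenous reads and 2405 genes per cell, the lowest of the 11 clusters. Cspg4 had a level of 270.7 in Cspg4dsRED and 21.3 in PdgfrbGFP, Ngfr 40.6 and 65.9, Cd34 237.4 and 1232, and Thy1 and Cd44 0 in Cspg4dsRED against 2.24 and 33.8 in PdgfrbGFP. With these 2 lines no test was made of the cluster on its own. Mcam was read in 1 of its 21 cells at 50000 reads. The summed level of the 7 mural markers was 78.7 (20.4 to 136.9 over 2 lines), against 105.1 in the other fibroblast clusters as a whole, cluster 4 included, while the share of cells with 10 or more such reads was 42.9% against 28.9%. The summed level of the 7 Schwann or glial markers, which all had a read there, was 127.1 (112.5 to 141.8 over 2 lines) against 33.3 (21.1 to 42.7 over 5 lines) in the other fibroblast clusters, with 10 or more reads in 19.05% of cells against 11.9%, and Sox10 was read in 3 of 21 cells. The 4 mesothelial markers summed to 72.3 against 9.27, with 10 or more reads in 19.05% of cells against 0.865%, but this level came from 1 of the 2 lines (143.9 and 0.627) and 2 of the 4 markers had no read. The 6 fibroblast markers summed to 7198 against 12896. The part of these markers in the Cspg4 and Ngfr levels was not tested.

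Fibroblast cells with high Cspg4 were then checked for other markers. Of the 20 cells of the other fibroblast clusters with at least 10 Cspg4 reads, 10 belonged to cluster 4 and 14 came from Cspg4dsRED. None of the 20 had a read of Mcam or of the pericyte marker Rgs5, with an upper bound of the exact 95% interval of 16.8%. Pdgfra reached 10 reads in 40% of them (19.1% to 63.9%) and in 74.4% of the 1184 cells without Cspg4 reads, and S100b, a glial marker, was read in 40% and 7.09%. Of the 49 cells with at least 10 Ngfr reads, 93.9% had a Pdgfra read, against 92.4% of the 1161 cells without Ngfr reads, and 93.9% had at least 10 Cd34 reads, against 96.9%. Cells without expression of either Pdgfra or Pdgfrb had been removed by the authors, so a Pdgfra read was partly set by that selection. Sox10 was read in 1 of the 49.

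Cspg4 in fibroblasts was then compared by plate and line. In fibroblast clusters without cluster 4, a Cspg4 read was found at 50000 reads in 22 Cspg4dsRED cells (19.8%, 12.9% to 28.5%) on the plate that held this line alone, and in 4 of 9 (44.4%, 13.7% to 78.8%) on the plate it shared with PdgfraGFP. PdgfraGFP cells on the shared plate had a share of 6.21% (2.88% to 11.5%), and the groups of the other lines and plates ran from 2.14% to 8.33%. On the other plate with 2 lines, the shares were 3.42% for Acta2GFP and 4.38% for PdgfrbGFP. At least 10 Cspg4 reads were found in 4 cells of the plate with Cspg4dsRED alone (3.60%), in 1 of the 9 and in 0 of the PdgfraGFP cells beside them, and in 0 to 1.12% of the groups of the other lines and plates. Within a plate, the comparison with another line rests on those 9 cells. The plates with Cspg4dsRED held 65 cluster 10 cells, all from that line, and the other plates with more than 4 such cells held 12 of Acta2GFP and 21 of PdgfrbGFP on the plate these lines shared and 20 on the PdgfrbGFP plate with a share of 8.33%. On the plate with Cspg4dsRED alone, the 49 cluster 10 cells had a mean level of 379 for Mcam and 549.5 for Cspg4, and the fibroblast-cluster cells without cluster 4 had 0.505 and 14.9. The part of cluster 10 cells on the same plate in the Cspg4 shares was not tested.

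Single reads of mural markers in fibroblast-cluster cells were also compared by the position of the cell in the plate. Before thinning, an Mcam read was found in 7.44% of the 524 fibroblast-cluster cells whose plate row and column held no cluster 10 cell, in 19.4% of the 675 that shared them with 1 to 4 such cells, and in 43.9% of those that shared them with 5 or more. The shares for Cspg4 were 6.87%, 16.1% and 40.6%. Of the genes that are not mural markers, Thy1 had 31.7%, 30.2% and 27.1%, and Ngfr 23.9%, 15.9% and 17.4%. S100a4 was highest in the group with 5 or more such cells (40.8%, 37.04% and 47.7%). The shares of Anpep, Cd34, Eng and Cd44 were lower in that group than in the group with none. Plate by plate, fibroblast-cluster cells that shared no row or column with cluster 10 cells were set against those that did. On 2 of 6 plates, both of PdgfrbGFP, the Mcam shares were 1.67% and 12.3%, and 19.4% and 61.1%. The share was also higher for those that did on 3 plates (0 and 15%, 6.25% and 14.4%, 14.9% and 18.9%), where those that did not numbered 8, 16 and 67. It was lower on the C57BL6 plate (9.09% and 1.82%), which held 3 cluster 10 cells. Cells of a plate are not replicates, so these shares are a description. For Cspg4, the same shares were 11.3% and 35.6% on a PdgfrbGFP plate, and 5.97% and 26.7% on the plate shared by Cspg4dsRED and PdgfraGFP. The Cspg4 shares were 0 of 8 cells and 41.7% on the plate of Cspg4dsRED alone, close on 2 plates (7.53% and 8.20%, 6.25% and 8.75%), and lower on the C57BL6 plate (4.55% and 1.82%), so that for Cspg4 the pooled shares mix position with the line. On the PdgfrbGFP plate with the widest Mcam gap, Ngfr was also read in 16.1% and 30.6% of cells. Cells with an Mcam read had a median of 1 read in each position group and none had 10, whereas Cspg4 reached 10 reads in 19 cells (12.3%) of the group with 5 or more. The shares of cells with at least 1 read of Mcam or Cspg4, by class, plate or line, are therefore given as detection and not as expressing cells, and the part of plate position in the differences between clusters was not tested.

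**Figure D5:**
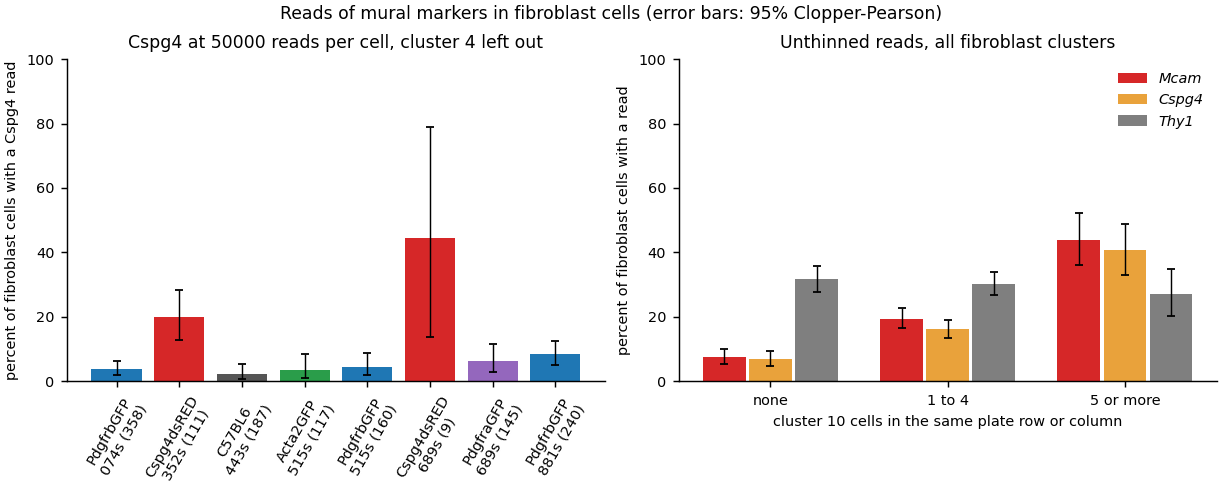
Left, percent of fibroblast-cluster cells (cluster 4 left out) with a Cspg4 read at 50000 endogenous reads, by line and plate with the number of cells; right, percent with a read of Mcam, Cspg4 or Thy1 before thinning, by the number of cluster 10 cells in the same plate row or column. Error bars are 95% Clopper-Pearson intervals. The Cspg4dsRED groups are highest on the left (19.8% and 44.4%). On the right, where all plates are pooled, Mcam goes from 7.44% to 43.9% and Thy1 from 31.7% to 27.1%.

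The genes whose pattern was most like each member were taken from 13465 genes over 29 groups of line and cluster, by the Pearson correlation of log2(level + 1). These groups share lines, plates and depth, so r is a description. Mcam was followed most closely by Fam81a (r 0.992), E030013I19Rik (0.992) and Asb2 (0.991), and Cspg4 by Hspb2 (0.841), Itga7 (0.828) and Cpe (0.827). Cd34 was followed by its antisense gene Gm16897 (0.992), Htra3 (0.972) and Pmp22 (0.931), and S100a4 by Gm42674 (0.998), with which it shares exon bases, Gm17035 (0.795) and Blvra (0.790).

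Anpep had Thbd (0.879), Dnm1 (0.857) and Xdh (0.850) as its nearest genes. For the other 4 genes the nearest were less close: Noc2l (0.788), Col5a2 (0.778) and Pdgfrl (0.767) for Cd44, Plxna2 (0.726), Cenpx (0.713) and Frem1 (0.693) for Thy1, Fgd5 (0.7102), Stx3 (0.691) and Pi4kb (0.682) for Ngfr, and Clptm1l (0.709), Dock4 (0.678) and Coro2b (0.659) for Eng. Among the 9 genes themselves r ran from -0.81 for Mcam and Anpep to 0.73 for Anpep and Cd34 and for Cspg4 and Mcam.

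Other surface markers of stromal cells gave a background for these values. Of a panel of 24, 0 were called higher and 9 lower in cluster 10 than in the fibroblast clusters, with a median log2 fold change of -1.90 against -0.93 for all genes. Of all genes, 2.17% were called higher and 4.02% lower. Besides Pdgfra, the largest were Dpp4, a serine peptidase of stromal progenitors, at -6.25 (SE 1.75, edgeR adjusted p 0.0384), Icam1, an adhesion molecule for leukocytes, at -5.67 (SE 1.103, edgeR adjusted p 0.00292), and Pdpn, podoplanin, at -5.54 (SE 0.77, edgeR adjusted p 7.62e-05). In cluster 5, 0 were called higher and 2 lower than in the other fibroblast clusters: Cd55, a complement regulator, at -4.32 (SE 0.38, edgeR adjusted p 0.000281) and Entpd2, an ectonucleotidase, at -2.26 (SE 0.39, edgeR adjusted p 0.0165). The median was -0.91 for the panel and -0.77 for all genes, of which 0.297% were called higher and 0.465% lower. Against cluster 5, cluster 10 had 1 of 23 called, Ly6a, which encodes the stem cell antigen Sca-1, lower by -4.58 (SE 0.79, edgeR adjusted p 1.66e-06). Of all genes, 0.673% were called lower there.

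Ligands, co-receptors, enzymes and relatives of the 9 proteins made up a list of 26. In cluster 10, 1 was called higher and 7 lower than in fibroblasts, with a median of -1.32. Of all genes, 2.17% were called higher and 4.02% lower, with a median of -0.93. The gene called higher was Sort1, encoding sortilin, a partner of the neurotrophin receptor, with a level of 168.3 against 2.22 (6.12 in log2, SE 1.11, edgeR adjusted p 0.00146). Among those called lower, Has2, a hyaluronan synthase, was lower by -6.85 (SE 1.93, edgeR adjusted p 0.0395) at a fibroblast level of 2.17, and Acvrl1, a receptor that acts with endoglin, by -4.33 (SE 0.89, edgeR adjusted p 0.00442). In cluster 5, 0 of 25 were called higher and 1 lower, S100a10 (-2.06, SE 0.35, edgeR adjusted p 0.0143), against 0.297% and 0.465% of all genes. Sort1 was also the only one of 24 called between clusters 10 and 5, higher by 7.21 (SE 2.04, edgeR adjusted p 0.0245), where 1.13% of all genes were called higher.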

How the data were processed

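Single cells of the mouse bladder were measured by Smart-seq2 with ERCC spike-in RNAs and 50 base single reads. The deposited values are unnormalized read counts, 1 per gene and cell, which the authors made with bcl2fastq, trim galore, TopHat2 running Bowtie or Bowtie2, and featureCounts of Subread (names from the methods and the submitters' processing notes), on GRCm38 (mm10). The methods name samtools for the removal of doublets at the read mapping step, without parameters, and the annotation release and strand setting are not given in the sources used here. The authors also filtered cells on counts, genes, ERCC and mitochondrial reads. They discarded possible doublets by a very high gene number, cells expressing neither Pdgfra nor Pdgfrb, and endothelial and immune cells. No caller for doublets was run here. Of the gene identifiers 46005 matched a symbol and 512 did not; 92 spike-ins were left out of library sizes.

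Cells were grouped by the deposited cluster and line labels, the line being the unit and a block in each fit. Counts were summed per line and class where both classes had at least 3 cells and tested with edgeR 4.0.16 (R 4.3.3; TMM scaling, filterByExpr with the design, quasi-likelihood F test, Benjamini-Hochberg adjustment over all genes tested), called at an adjusted p under 0.05 and, between 2 classes, a log2 fold change of 2 or more in size. Levels are reads per 500000 endogenous reads; a group's level is the mean over lines of each line's mean cell. Shares, gates and the area under the ROC curve used cells thinned to 50000 reads, with 100000 as an alternative that left out 237 cells; intervals are 95% Clopper-Pearson, and the limit of a count of 0 is 3 counts. The alternatives used DESeq2 1.42.0 and limma 3.58.1 with voom; Python 3.11.15, numpy 2.4.6, scipy 1.17.1 and pandas 2.3.3 did the rest. The code was tested on simulated data.

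The rule that names the 9 genes uses no values, but these genes, the other lists and the tests were chosen with earlier results of these data known. Named besides the 9 were the 3 genes most correlated with each, among genes with a mean level of at least 1 over groups of at least 10 cells, and up to 4 called genes a list and comparison by absolute log2 fold change. Genes named from the marker lists, and S100b and Rgs5, were checked where their level moved with a result. Some members of the gene lists are counted but not reported here by name.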

Additional observations from a re-analysis of the deposited data

Results flagged for a closer look

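In 27 groups of 4 or 5 lines, 1 line's mean level stood apart from the others by Dixon's criterion in 5. The usual error rate of this criterion assumes normally distributed values. Some of these levels were near 0 or came from few cells, so no rate by chance is given. Cspg4 in cluster 5 was 233.9 reads per 500000 in Cspg4dsRED, from 3 cells, and 0.136 to 4.29 in the other 3 lines. Cspg4 in the other fibroblast clusters was 46.4 in Cspg4dsRED and 0.671 to 2.18 in the other 4 lines. Eng in cluster 5 was 488 in the same 3 cells of Cspg4dsRED and 127.95 to 135.7 in the other lines. Ngfr in cluster 10 was 0.352 in PdgfrbGFP, from 45 cells, and 0 to 0.0519 in the others. Ngfr in cluster 5 was 9.42 in C57BL6, from 15 cells, and 0 to 0.184 in the others. What set these lines apart was not tested.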

How the results depend on the processing

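Of 954 values under the alternatives, 782 kept their side of the threshold or moved little. For separations little meant less than the spread over lines, and for shares within the interval. Of the tests of single genes, 18 became weaker, 19 stronger and 0 reversed. A change of direction counted as reversed only where the gene was called in either fit, so changes of direction in uncalled genes are not counted. The rest, all shares, counts or separations, moved. The areas that led each comparison stayed within the spread under all alternatives run.

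Between cluster 10 and the fibroblast clusters 6.2% of the genes tested were called, against 18.6% with DESeq2, 10% with limma-voom, 15.9% with sums per plate and line, and 2.88% to 5.79% with a line left out (2.88% without Cspg4dsRED, 3.39% without PdgfrbGFP, 3.52% without Acta2GFP). Of the 9 genes 5 were called, 6 in 8 alternatives (DESeq2, limma-voom, plate sums and equal depth among them), 3 with the median gene at 0 and 3 to 4 with a line left out. For cluster 5, 0.762% were called, against 0.697% of a larger number of genes without a filter on low counts, 8.68% with DESeq2, 2.76% with limma-voom, 3% with plate sums, 2.23% at equal depth and 0.559% to 1.31% with a line left out (1.31% without Cspg4dsRED). Of the 9 genes 1 was called, 2 with DESeq2, 2 with plate sums and 1 to 2 with a line left out. Between clusters 10 and 5, 1.8% were called, against 0.826% of a larger number of genes without a filter on low counts, 6.07% with DESeq2, 2.86% with limma-voom, 4.54% with plate sums and 1.11% to 2.28% with a line left out (1.11% without Cspg4dsRED, 1.33% without PdgfrbGFP). Of the 8 members 2 were called, 1 with limma-voom and 1 to 2 with a line left out. Among the other fibroblast clusters 2.54% were called, against 6.09% with DESeq2, 6.87% with limma-voom, 6.33% with plate sums and 0.324% to 1.77% with a line left out (0.324% without PdgfrbGFP, 0.483% without C57BL6, 1.01% without Acta2GFP). Of the 8 members 1 was called, 2 with median-of-ratios scaling, 3 with DESeq2, 2 with limma-voom, 2 with plate sums and 0 to 1 with a line left out. Fewer lines enter each fit with a line left out; the cause of the other shifts was not tested.

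Without the line as a replicate block, 9.56%, 1.41%, 2.71% and 7.26% of the genes were called in the same order of comparisons, and 1 of the 8 members between clusters 10 and 5.

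A filter by class and the sum of S100a4 with Gm42674 were chosen after seeing the data. Limits are the 3 cluster 10 cells of C57BL6, the 3 cluster 5 cells of Cspg4dsRED, the depth of 50000 reads for shares, and the lack of animal labels.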
